A study of Mus musculus with 40 samples.

Results

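The fetal cardiac gene program was followed through 9 genes chosen by name: the natriuretic peptides *Nppa* and *Nppb*, the myosin heavy chains *Myh6* and *Myh7*, the sarcomeric actins *Acta1* and *Actc1*, the ankyrin repeat gene *Ankrd1*, and the atrial myosin light chains *Myl4* and *Myl7*. They are 9 of the 17831 genes listed in either deposited table. All 9 are listed for females and 8 for males, where *Myl7* is not listed, and every listed member passed the filter on low values. Cardiomyocytes under mechanical load or after injury return in part to genes used before birth. The ventricle then makes more natriuretic peptide, and in rodents the slow myosin *Myh7* gains on the fast adult myosin *Myh6* while skeletal actin *Acta1* gains on cardiac actin *Actc1*. *Myl4* and *Myl7* are made in the atria of the adult heart, so they were also read in each library as a check for atrial tissue.

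RNA sequencing of hearts from male and female mice addressed what happens when cardiomyocytes are made to express *Il11*, a cytokine of the IL6 family. CM-Il11-Tg mice were heterozygous for *Rosa26-Il11* and for α-MHC-MerCreMer (MCM), a Cre recombinase that the *Myh6* promoter drives in cardiomyocytes and that tamoxifen activates. They were given tamoxifen at 8 weeks of age and sampled 1, 3 or 6 weeks later, and uninduced CM-Il11-Tg mice had none. Controls were tamoxifen-treated littermates heterozygous for MCM without *Rosa26-Il11*, which the labels call WT with the time point Baseline. The same controls of a sex served for all 3 weeks. The study calls them age-matched, but the labels give no week after tamoxifen. Whether age and time since tamoxifen matched at each week is thus not known. The Cre driver uses the promoter of a member, *Myh6*, and every group carried that transgene. The labels name the tissue as heart and the study's text as left ventricle.

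Each library came from 1 mouse, with 4 libraries per group and sex, except for 3 male controls and 3 male hearts at 6 weeks. Of the 40 libraries, 2 male ones carry labels that contradict each other and entered no comparison. Male libraries held 16663513 to 65333832 reads over the genes listed, and female ones 19147947 to 30929192. *Il11* followed the labels in all 38 remaining libraries. It lay between 0 and 0.166 CPM (a level relative to library size) in controls, between 15.5 and 49.1 CPM in uninduced hearts and between 328 and 819 CPM in induced hearts. The 8 cardiomyocyte markers summed to between 11700 and 23400 CPM in every library. *Myl4* and *Myl7* stood apart in 2 female libraries, replicate 2 at 1 week and replicate 2 at 6 weeks, and calls that rest on them are given with and without them. Because each sex has a table of its own with its own scaling, all comparisons stay inside a sex, and whether the sexes differ was not tested.

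Against control, *Nppa*, *Nppb*, *Ankrd1* and *Acta1* were the members called, and all calls were rises. A member was called at an adjusted p under 0.05 in limma, over all genes tested. In males at 1 week 4 of 8 members rose (*Nppa*, *Nppb*, *Ankrd1* and *Acta1*), where 18.9% of all genes rose and 14.6% fell. In males at 3 weeks 2 of 8 rose (*Nppa* and *Ankrd1*) against 13.2% of genes rising and 8.1% falling, and at 6 weeks 1 of 8 rose (*Ankrd1*) against 16.2% rising and 10.9% falling. In females at 1 week 3 of 9 rose (*Nppa*, *Nppb* and *Ankrd1*) against 15.3% of genes rising and 13.1% falling. In females 2 of 9 rose at 3 weeks (*Nppb* and *Ankrd1*) against 16.8% rising and 14.5% falling, and 3 of 9 rose at 6 weeks (*Nppa*, *Nppb* and *Ankrd1*) against 21.7% rising and 21.0% falling. *Ankrd1* was the member called in all 6 comparisons. *Myh6*, *Myh7*, *Actc1*, *Myl4* and *Myl7* were called in none of them. The count of 1 in 8 in males at 6 weeks lies near the background share of rising genes, and no count was read as a result about the list. These are bulk samples, in which fewer cells of a type and less RNA per cell cannot be told apart.

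**Figure D1:**
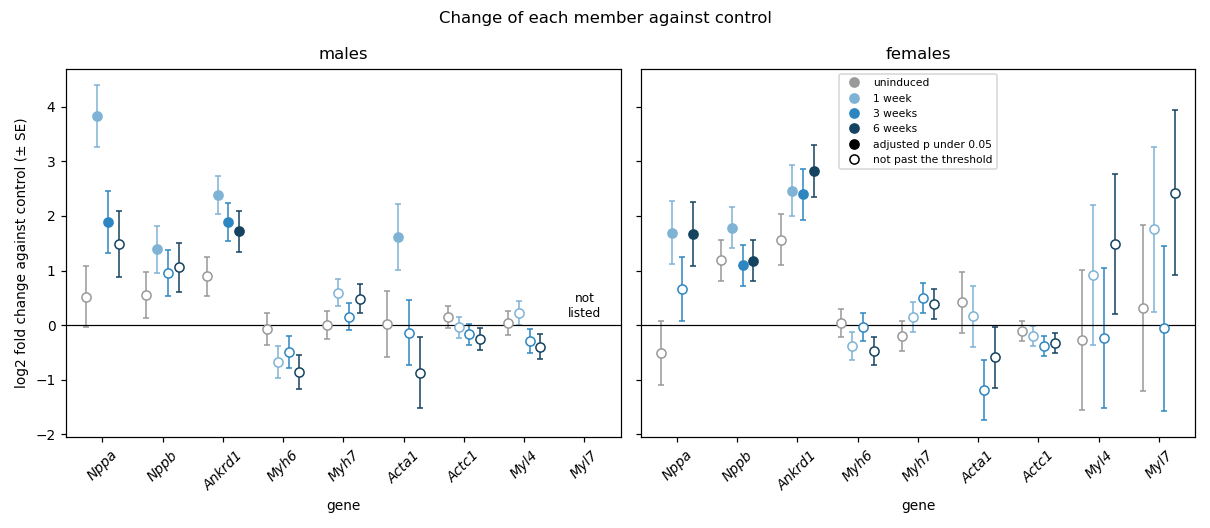
Log2 fold change against control (± SE, limma) for each member in males (left) and females (right), with filled points at an adjusted p under 0.05 and open points otherwise. *Nppa*, *Nppb* and *Ankrd1* hold all filled points apart from *Acta1* in males at 1 week, and the wide errors of *Myl4* and *Myl7* in females come with 2 libraries of high atrial light chain.

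*Nppa* and *Nppb* encode the atrial and B-type natriuretic peptides, hormones that the heart releases when its walls are stretched and that lower blood volume and pressure. They are neighbours on chromosome 4 (GRCm39), on the plus strand: *Nppb* at chr4:148069859-148071662 and *Nppa* at chr4:148085091-148086583, with 13428 bases between them. The promoters of the members called higher in at least 1 comparison are shown, as 250 bases before the RefSeq gene start. The sequences are from the RefSeq promoter table (build GRCm38.p6) and were placed on GRCm39 by an exact match. They overlap the annotated gene spans, whose outermost starts lie further upstream than the RefSeq starts. Capitals mark GATA motifs (AGATAA or TGATAA), MCAT motifs (CATTCC) and the CArG box on either strand, and TATAAA on the gene's strand.

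Nppb (chr4:148070107-148070356, plus strand): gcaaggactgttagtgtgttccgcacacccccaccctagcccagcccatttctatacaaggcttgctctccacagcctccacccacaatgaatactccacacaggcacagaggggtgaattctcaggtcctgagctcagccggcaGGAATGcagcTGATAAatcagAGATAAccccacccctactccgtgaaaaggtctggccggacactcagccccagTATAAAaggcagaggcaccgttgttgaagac
Nppa (chr4:148084929-148085178, plus strand): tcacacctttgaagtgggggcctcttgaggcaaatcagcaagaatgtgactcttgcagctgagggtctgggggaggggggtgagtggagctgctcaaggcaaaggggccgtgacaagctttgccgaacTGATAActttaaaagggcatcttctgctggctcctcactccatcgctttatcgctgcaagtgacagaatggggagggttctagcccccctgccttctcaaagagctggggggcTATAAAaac
Ankrd1 (chr19:36097245-36097494, minus strand): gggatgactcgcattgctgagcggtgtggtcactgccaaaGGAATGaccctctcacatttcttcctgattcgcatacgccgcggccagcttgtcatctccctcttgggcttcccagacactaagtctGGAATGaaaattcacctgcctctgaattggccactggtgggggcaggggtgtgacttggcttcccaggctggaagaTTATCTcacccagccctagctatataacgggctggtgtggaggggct
Acta1 (chr8:124621515-124621764, minus strand): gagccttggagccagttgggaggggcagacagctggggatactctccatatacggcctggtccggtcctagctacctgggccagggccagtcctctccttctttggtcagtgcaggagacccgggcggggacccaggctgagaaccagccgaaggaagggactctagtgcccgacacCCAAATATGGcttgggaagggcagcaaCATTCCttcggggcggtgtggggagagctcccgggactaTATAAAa

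A GATA motif stood in the windows of *Nppa*, *Nppb*, *Ankrd1* and *Myl7*, that is 4 of the 9 members, against 16.5% of 32536 promoter windows of the same length. *Nppb* held 2 of them, and *Ankrd1* held its match on the opposite strand. CATTCC was present in 5 of 9 members, including *Nppb*, *Acta1* and, in 2 copies, *Ankrd1*, against 12.6% of windows. The CArG box was present in 3 of 9 (*Acta1*, *Actc1* and *Myl7*) against 1.48%, TATAAA in 3 of 9 (*Nppa*, *Nppb* and *Acta1*) against 7.55%, and a STAT motif (TTCNNNGAA) in 0 of 9 against 7.04%. None of these motifs overlapped another in the 4 windows shown. Such matches describe the letters in these windows and were not tested against the expression values.

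*Nppa* was called higher in males at 1 and 3 weeks. In males its level was 59.96, 14.7 and 34.01 CPM in controls and 870.0, 494, 429 and 220.4 CPM at 1 week. It was 99.6, 208, 141 and 63.6 CPM at 3 weeks and 171, 69.2 and 57.9 CPM at 6 weeks. All 4 hearts at 1 week and all 4 at 3 weeks lay above every male control, and the lowest heart at 6 weeks fell below the highest control. *Nppa* had a log2 fold change of 3.83 ± 0.56 (SE) at 1 week (adjusted p = 4.05e-05), 1.89 ± 0.56 at 3 weeks (adjusted p = 0.0206) and 1.49 ± 0.60 at 6 weeks (adjusted p = 0.0742). The call at 3 weeks was lost without replicate 2 of every group (1.61, adjusted p = 0.0843) or without replicate 3 (1.27, adjusted p = 0.312).

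In females *Nppa* was 34.3, 60.6, 55.3 and 74.4 CPM in controls and 243, 202, 231 and 85.01 CPM at 1 week. It was 38.9, 100.1, 113 and 125 CPM at 3 weeks and 104, 818, 166 and 61.8 CPM at 6 weeks. The hearts at 1 week did not overlap the controls, and at 3 and 6 weeks 3 of 4 hearts lay above every control. For *Nppa* the log2 fold change was 1.70 ± 0.59 at 1 week (adjusted p = 0.035), 0.67 ± 0.59 at 3 weeks (adjusted p = 0.421) and 1.66 ± 0.59 at 6 weeks (adjusted p = 0.0278). The 818 CPM came from the female library with the most *Myl4* and *Myl7*. Without the 2 female libraries with atrial light chains the change of *Nppa* at 6 weeks was 0.91 (adjusted p = 0.141) and at 1 week 1.63 (adjusted p = 0.0173), so the female call at 6 weeks rests on that library. It was also lost without replicate 3 of every group (1.69, adjusted p = 0.0893). The call at 1 week was lost without replicate 1 of every group (1.33, adjusted p = 0.156) or replicate 3 (1.58, adjusted p = 0.136). An antisense RNA gene, *Gm13054*, overlaps 60.4% of the exon bases of *Nppa*, and since the strand setting of the counting is not given in the sources used here, reads of the pair cannot be told apart.

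**Figure D2:**
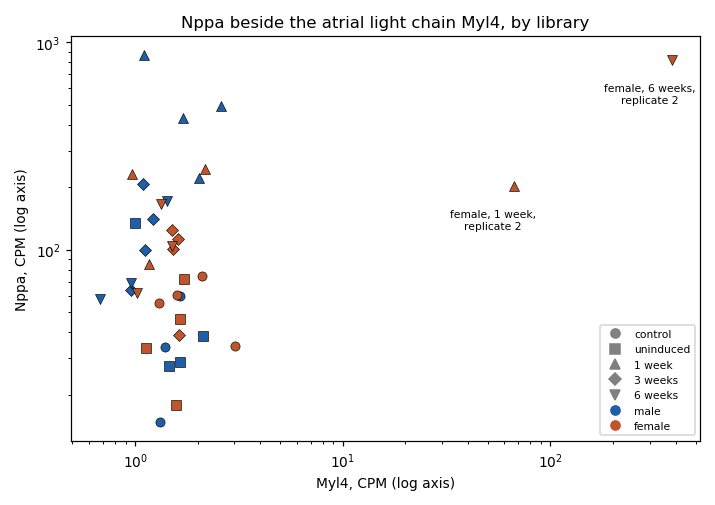
*Nppa* against *Myl4* in each of 38 libraries, both in CPM on log axes, with symbols for groups and colours for sexes. All but 2 libraries lie between 0.676 and 3.01 CPM of *Myl4*, over the whole range of *Nppa* in males, and the 2 labelled female libraries lie at 67.0 and 383 CPM of *Myl4*.

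*Nppb* was called at every week in females and at 1 week in males. Female values were 105, 69.2, 65.6 and 70.8 CPM in controls and 382, 253, 216 and 230.4 CPM at 1 week. It was 108, 215, 171 and 183 CPM at 3 weeks and 210.0, 265, 100.3 and 162 CPM at 6 weeks. Hearts at 1 and 3 weeks lay above every female control, and 1 heart at 6 weeks did not. *Nppb* had a log2 fold change of 1.78 ± 0.37 at 1 week (adjusted p = 0.00116), 1.10 ± 0.37 at 3 weeks (adjusted p = 0.0298) and 1.18 ± 0.37 at 6 weeks (adjusted p = 0.0157). At 6 weeks *Nppb* was 0.98 (adjusted p = 0.0669) without the 2 female libraries with atrial light chains, 1.18 (adjusted p = 0.077) without replicate 4, and 0.93 (adjusted p = 0.138) without replicate 2. At 3 weeks it was 0.93 (adjusted p = 0.162) without replicate 2 and 1.01 (adjusted p = 0.152) without replicate 4.

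In males *Nppb* was 171, 66.6 and 59.1 CPM in controls, 646, 122, 150.4 and 234 CPM at 1 week, 195, 227, 165 and 115 CPM at 3 weeks, and 249.9, 170.1 and 144 CPM at 6 weeks. One control was higher than the other two, and it overlapped the hearts of every week. For *Nppb* the log2 fold change was 1.39 ± 0.42 at 1 week (adjusted p = 0.0164), 0.95 ± 0.42 at 3 weeks (adjusted p = 0.12) and 1.06 ± 0.45 at 6 weeks (adjusted p = 0.0911). Without the male library at 1 week that was highest, replicate 1, *Nppb* was 0.89 (adjusted p = 0.046) at that week, and in that fit it also passed the threshold at 3 weeks (0.95, adjusted p = 0.0321) and 6 weeks (1.06, adjusted p = 0.0225). Without replicate 4 the change at 1 week was 1.09 (adjusted p = 0.13), and without replicate 3 it was 1.39 (adjusted p = 0.0932).

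The balance of the peptides was read as the share of *Nppb* in the summed CPM of both genes. In males it was 73.1% ± 9.27 (SD, n = 3) in control hearts, then 35.0% ± 14.7 (n = 4) at 1 week, 59.2% ± 7.16 (n = 4) at 3 weeks and 67.2% ± 6.85 (n = 3) at 6 weeks. The shares at 1 week lay below every control. The log2 ratio of *Nppb* to *Nppa* was 2.44 lower than in controls (exact permutation test, two-sided, p = 0.0571, adjusted p = 0.171 over 24 ratio tests). In females the share was 57.9% ± 11.9 in control hearts, then 59.5% ± 10.4 at 1 week, 65.4% ± 6.72 at 3 weeks and 50.4% ± 23.0 at 6 weeks (n = 4 each), and the groups overlapped. It was 82.2% ± 2.16 in female uninduced hearts (n = 4), above every control, with an exact permutation p of 0.0286 (adjusted p = 0.171). The smallest p these exact tests allow is 0.0286, or 0.1 with 3 libraries in each group. No ratio passed after adjustment, which groups of this size could hardly do over 24 tests.

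Of 12 genes that process, bind or answer the peptides, 11 were tested. *Corin*, the protease that activates pro-atrial natriuretic peptide in cardiomyocytes, fell in all 6 comparisons with control. In males *Corin* was 198 ± 32.4 CPM in controls (n = 3) and 112 ± 16.3 CPM at 6 weeks (n = 3), a log2 fold change of -0.81 ± 0.20 (adjusted p = 0.00591), and in females it went from 161 ± 23.4 to 75.7 ± 7.92 CPM (n = 4), a change of -1.08 ± 0.13 (adjusted p = 9.02e-07). *Furin*, which cleaves the B-type precursor, fell at all 3 weeks in females and at 1 week in males. *Npr1*, the receptor shared by both peptides, was not called in any of the 6 comparisons and stood at 26.5 ± 2.5 CPM in male controls and 29.3 ± 4.23 CPM at 6 weeks. At 6 weeks in females 3 of 11 rose (*Mme*, *Prkg1* and *Pde5a*) and 5 of 11 fell (*Npr2*, *Npr3*, *Corin*, *Furin* and *Ide*), and in males 0 rose and 1 fell. Of all genes at 6 weeks, 21.7% rose and 21.0% fell in females, and 16.2% rose and 10.9% fell in males. *Mme*, or neprilysin, which degrades the peptides, was 4.79 ± 1.03 CPM in female controls and 19.4 ± 9.67 CPM at 6 weeks. The median log2 fold change of the 11 genes at 6 weeks was -0.15 in males and -0.32 in females, beside -0.01 and -0.02 over all genes tested.

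*Ankrd1* encodes cardiac ankyrin repeat protein, a titin-binding protein and cofactor of transcription that rises in stretched or injured muscle. It lies on the minus strand at chr19:36089352-36097506. In males it was 683, 557 and 725 CPM in controls, 4928, 2952, 2756 and 3289 CPM at 1 week, 2541, 3231, 2149 and 1919.7 CPM at 3 weeks, and 3806, 1967 and 1323 CPM at 6 weeks. No induced male heart overlapped the controls. *Ankrd1* had a log2 fold change of 2.38 ± 0.35 at 1 week (adjusted p = 4.12e-05), 1.89 ± 0.35 at 3 weeks (adjusted p = 0.000538) and 1.72 ± 0.38 at 6 weeks (adjusted p = 0.00191).

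In females *Ankrd1* was 399, 371, 258 and 360.4 CPM in controls, 2482, 1991, 2249 and 1145 CPM at 1 week, 2040.3, 1909.9, 1781 and 1528 CPM at 3 weeks, and 2378, 3266, 2317 and 1919 CPM at 6 weeks. The induced hearts again lay above every control. The log2 fold change of *Ankrd1* was 2.46 ± 0.47 at 1 week (adjusted p = 0.000481), 2.40 ± 0.47 at 3 weeks (adjusted p = 0.000559) and 2.82 ± 0.47 at 6 weeks (adjusted p = 7.51e-05), about 7.07-fold at 6 weeks. These calls held under every alternative run that gave an adjusted p. DESeq2 gave *Ankrd1* in females none (NA), with changes of 2.52, 2.40 and 2.85. Of the other ankyrin repeat genes of its family, *Ankrd23* rose from 33.5 ± 2.06 to 60.9 ± 7.65 CPM at 6 weeks in males (log2 fold change 0.85 ± 0.23, adjusted p = 0.0112) and from 21.4 ± 4.25 to 47.2 ± 12.7 CPM in females (1.10 ± 0.25, adjusted p = 0.00149). In females *Ankrd23* was not called at 3 weeks, and it was called higher in uninduced hearts against control. *Ankrd2* was called higher in males at 1 and 3 weeks only.

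**Figure D3:**
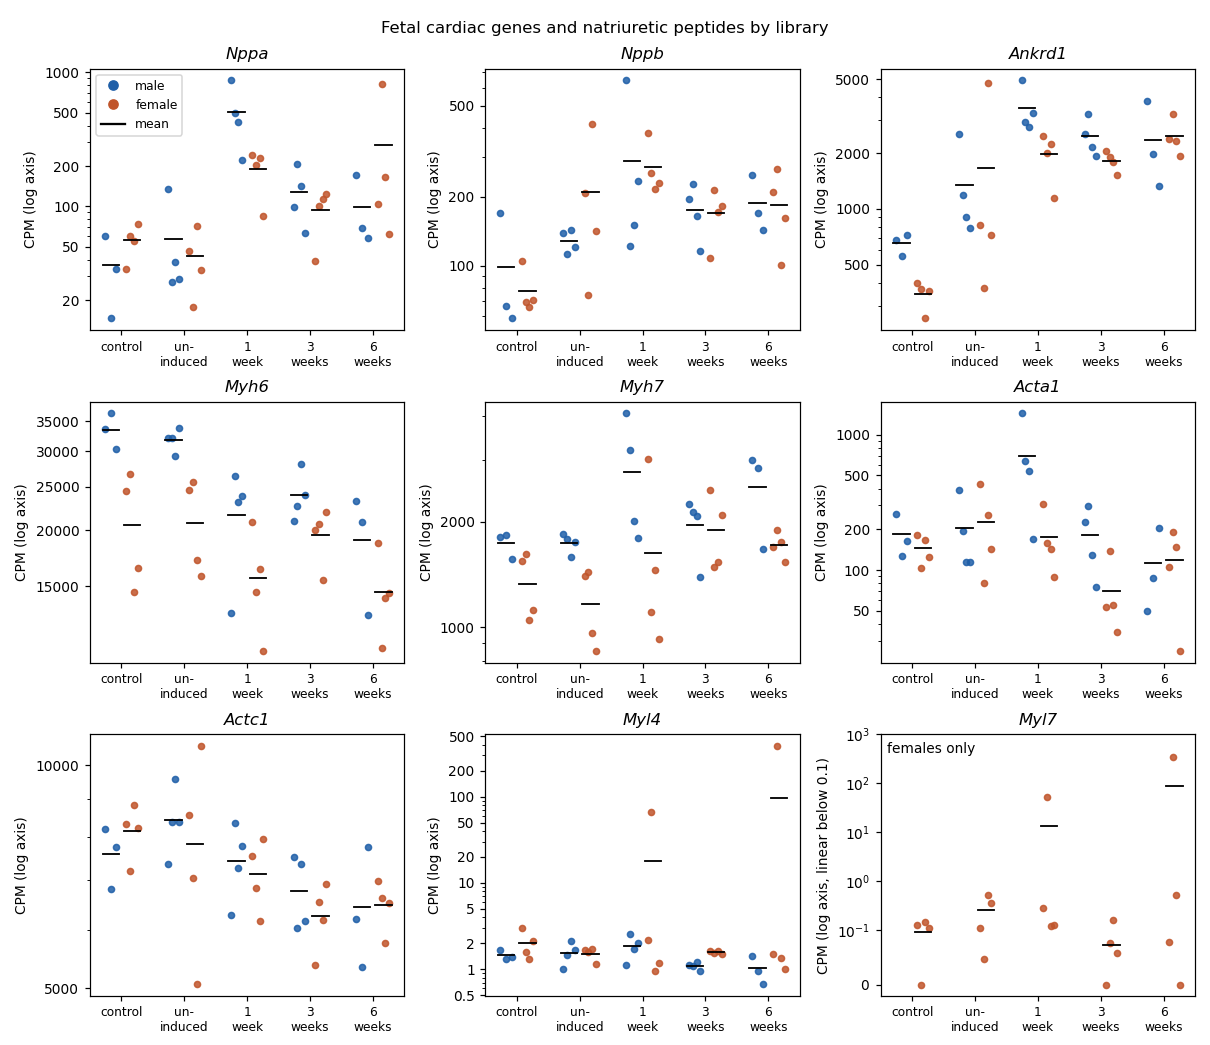
CPM of each member in every library on log axes (for *Myl7* linear below 0.1), by group, with males and females in separate colours and bars at group means. *Ankrd1* in induced hearts lies above every control of the same sex, *Myh6* and *Myh7* of females overlap the controls in every group, and the 2 high female libraries stand out for *Myl4* and *Myl7*. The tables of the sexes have separate scaling.

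*Myh6* and *Myh7* encode the fast and slow myosin heavy chains of the heart muscle and lie side by side on the minus strand of chromosome 14, at chr14:55179367-55205887 and chr14:55208141-55232084, with 2253 bases between them. Their canonical transcripts are 6244 and 6135 bases, so their CPM values can be set against each other. The genes share sequence: 18.7% of the 60-base words of *Myh6* also occur in *Myh7*, and 19.0% the other way, so reads there could be assigned to either or dropped.

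In males *Myh6* was 33687, 36419 and 30326 CPM in controls, 13038, 26406, 23101 and 23807 CPM at 1 week, 21004, 22628, 28046 and 23962 CPM at 3 weeks, and 23275, 20873 and 12897 CPM at 6 weeks. At this scaling every induced male heart lay below every male control. By reads on listed genes, replicate 3 at 3 weeks held 853400 of 28161281 for *Myh6*. That is a larger part than the 898917 of 31845466 in control replicate 1, so the separation depends on scaling. None of the male *Myh6* changes passed the threshold: the log2 fold change was -0.68 ± 0.30 at 1 week (adjusted p = 0.0836), -0.49 ± 0.30 at 3 weeks (adjusted p = 0.27) and -0.86 ± 0.32 at 6 weeks (adjusted p = 0.05, not under it). At 1 week *Myh6* was called with edgeR on recovered reads (-0.63, adjusted p = 0.0372) and with DESeq2 (-0.66, adjusted p = 0.00664). At 6 weeks it was called with edgeR on recovered reads (-0.81, adjusted p = 0.0177) and with DESeq2 (-0.83, adjusted p = 0.00132). In females *Myh6* was 24409, 26720.0, 14515 and 16415 CPM in controls, 20827, 14553, 16384 and 10751 CPM at 1 week, 19981, 20593, 15513 and 21988 CPM at 3 weeks, and 18687, 10927, 14119 and 14463 CPM at 6 weeks. The female groups overlapped at every week. The female log2 fold change of *Myh6* was -0.39 ± 0.26 at 1 week (adjusted p = 0.287), -0.04 ± 0.26 at 3 weeks (adjusted p = 0.933) and -0.47 ± 0.26 at 6 weeks (adjusted p = 0.145).

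*Myh7* was 1804, 1829 and 1570.5 CPM in male controls, 4068, 3189.8, 2009 and 1799 CPM at 1 week, 2247, 2129, 2070.0 and 1393 CPM at 3 weeks, and 2995, 2850.1 and 1673 CPM at 6 weeks. Among females it was 1541, 1614, 1048 and 1121 CPM in controls, 3014, 1104, 1458 and 925 CPM at 1 week, 2455, 1482, 1537 and 2090.0 CPM at 3 weeks, and 1690.2, 1897, 1748 and 1537 CPM at 6 weeks. The groups overlapped in each sex and week. The log2 fold change of *Myh7* was 0.60 ± 0.25 (adjusted p = 0.0764), 0.16 ± 0.25 (adjusted p = 0.733) and 0.49 ± 0.27 (adjusted p = 0.193) at the 3 weeks in males. In females it was 0.15 ± 0.28 (adjusted p = 0.719), 0.50 ± 0.28 (adjusted p = 0.182) and 0.39 ± 0.28 (adjusted p = 0.264). *Myh7* in males at 1 week was called with edgeR (0.67, adjusted p = 0.0444) and with DESeq2 (0.65, adjusted p = 0.0247). With each library scaled to its cardiomyocyte markers, a scaling that moves the median of all genes by 0.32 in males and 0.30 in females, *Myh7* at 6 weeks was 0.86 (adjusted p = 0.0256) in males and 0.75 (adjusted p = 0.0122) in females.

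The share of *Myh7* in the summed CPM of the 2 myosins does not depend on scaling, and it was higher in induced hearts. In males it was 5.08, 4.78 and 4.92% in controls, 23.8, 10.8, 8.0 and 7.03% at 1 week, 9.66, 8.6, 6.87 and 5.49% at 3 weeks, and 11.4, 12 and 11.5% at 6 weeks. Every induced male heart lay above every control. Female values were 5.94, 5.7, 6.74 and 6.39% in controls, 12.6, 7.05, 8.17 and 7.92% at 1 week, 10.9, 6.71, 9.01 and 8.68% at 3 weeks, and 8.29, 14.8, 11 and 9.6% at 6 weeks. Only 1 female heart, at 3 weeks, reached down into the control range. The ratio of *Myh7* to *Myh6* was 2.42-fold that of controls at 1 week in males (exact permutation p = 0.0571), 1.56-fold at 3 weeks (exact p = 0.0571) and 2.54-fold at 6 weeks (exact p = 0.1, the smallest possible). In females it was 1.45-fold at 1 week (exact p = 0.0286), 1.45-fold at 3 weeks (exact p = 0.0571) and 1.82-fold at 6 weeks (exact p = 0.0286). After adjustment over 24 ratio tests none passed, with adjusted exact permutation p-values from 0.171 to 0.229. An adjusted p under 0.05 would need many of the 24 tests at their smallest possible p. Failing to pass therefore says little about how far the groups lie apart. Summed *Myh6* and *Myh7* was 35212 ± 3185 CPM in male controls (n = 3) and 21521 ± 6153 CPM at 6 weeks (n = 3). In females it was 21846 ± 6245 CPM in controls and 16267 ± 3108 CPM at 6 weeks (n = 4 each).

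**Figure D4:**
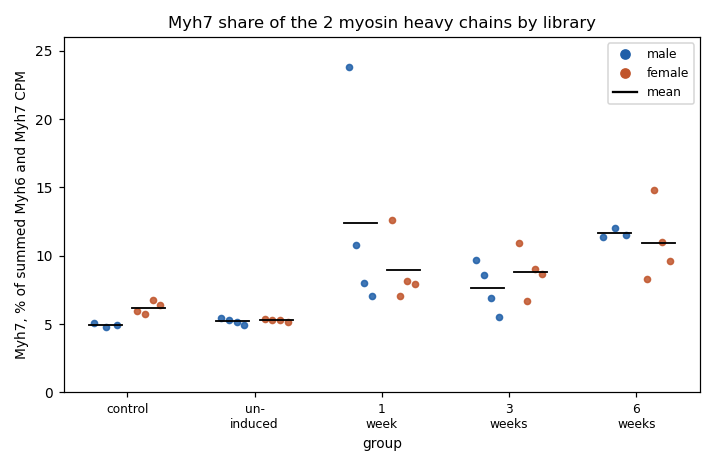
Share of *Myh7* in the summed CPM of *Myh6* and *Myh7* (percent, axis from 0) in each library, with bars at group means. Controls and uninduced hearts lie between 4.78 and 6.74%, and the highest library, 23.8%, is replicate 1 of the males at 1 week.

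*Mhrt*, a long noncoding RNA of the adult heart that runs antisense across the *Myh7* locus and covers 24.6% of its exon bases, fell at 1 and 6 weeks in both sexes, and *Myh7* was not called. As for *Nppa* and *Gm13054*, reads of *Mhrt* and *Myh7* cannot be told apart where they overlap if counting did not use strand. In males *Mhrt* was 101.4, 79.6 and 57.0 CPM in controls, 14.3, 45.4, 44.0 and 23.6 CPM at 1 week and 33.7, 35.4 and 48.9 CPM at 6 weeks. The groups did not overlap. The log2 fold change of *Mhrt* was -1.41 ± 0.29 (adjusted p = 0.00109) at 1 week, -0.82 ± 0.29 (adjusted p = 0.0527) at 3 weeks and -0.98 ± 0.31 (adjusted p = 0.025) at 6 weeks. In females it fell from 69.1 ± 23.3 CPM in controls to 16.8 ± 15.8 CPM at 6 weeks (n = 4 each), a change of -2.30 ± 0.57 (adjusted p = 0.00297), and the 1-week change was -1.56 ± 0.57 (adjusted p = 0.0454). At 3 weeks female *Mhrt* was 49.5 ± 12.5 CPM, a change of -0.45 ± 0.57 (adjusted p = 0.591), and overlapped the controls.

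Thyroid hormone favours *Myh6* over *Myh7* in rodent heart, and genes that set its supply were among 10 regulators of the myosin balance. At 6 weeks *Dio2* and *Dio3* rose and 2 of 10 fell (*Thrb* and *Sox6*) in each sex. *Dio3*, the deiodinase that inactivates thyroid hormone, was listed at 0 CPM in every male control and at 1.61 ± 0.254 CPM at 6 weeks (n = 3), and in females it went from 0.0596 ± 0.0612 to 4.45 ± 0.798 CPM (adjusted p = 3.55e-11). *Dio2*, the deiodinase that activates it, went from 0.985 ± 0.361 to 2.33 ± 0.709 CPM in males (adjusted p = 0.0116) and from 1.2 ± 0.559 to 10.4 ± 5.47 CPM in females (adjusted p = 7.45e-06). *Thrb*, a thyroid hormone receptor, changed by -0.98 ± 0.19 on the log2 scale in males (adjusted p = 0.00076) and by -0.88 ± 0.15 in females (adjusted p = 9.24e-05). *Sox6*, a factor that represses slow myosin in muscle, changed by -0.62 ± 0.14 (adjusted p = 0.00208) and by -0.47 ± 0.12 (adjusted p = 0.00297). *Pura* and *Purb* were not called. The median of the 10 was -0.20 in males and -0.12 in females.

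*Acta1* and *Actc1* encode the skeletal and cardiac α-actins of the thin filament, at chr8:124618501-124623661 and chr2:113876266-113884043. Their canonical transcripts share no 60-base word. *Acta1* was called in males at 1 week alone, and *Actc1* in no comparison with control. In males it was 261, 127 and 164 CPM in controls, 1434, 639.8 and 541 CPM in replicates 1 to 3 and 169.9 CPM in replicate 4 at 1 week, 225, 297, 130.3 and 75.3 CPM at 3 weeks, and 49.8, 87.3 and 204 CPM at 6 weeks. At 1 week 3 of 4 male hearts lay above every control, and at later weeks the groups overlapped. The log2 fold change of *Acta1* at 1 week was 1.61 ± 0.60 (adjusted p = 0.0452), and it was 1.14 (adjusted p = 0.144) without replicate 1 of that group. Leaving out replicate 1, 2 or 3 of every group also ended the call (1.42, 1.53 and 1.38, with adjusted p-values of 0.0749, 0.104 and 0.254).

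In females *Acta1* was 181, 104, 168 and 126 CPM in controls, 307, 159, 142 and 89.0 CPM at 1 week, 53.4, 138, 55.6 and 34.9 CPM at 3 weeks, and 105, 193, 149 and 25.4 CPM at 6 weeks. The log2 fold change of *Acta1* was 0.16 ± 0.56 (adjusted p = 0.864), -1.19 ± 0.56 (adjusted p = 0.111) and -0.59 ± 0.56 (adjusted p = 0.411). With only the 2 groups in the fit the 3-week change of *Acta1* passed the threshold (-1.19, adjusted p = 0.011), as it did without replicate 2 (-1.72, adjusted p = 0.0341).

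*Actc1* was 7591 ± 710 CPM in male controls (n = 3) and between 6432 ± 1226 CPM (6 weeks, n = 3) and 7426 ± 878 CPM (1 week, n = 4) in induced males. Among females it was 8346, 7204, 8841 and 8223 CPM in controls, 5370.4, 6547, 6185 and 6909 CPM at 3 weeks, and 6985, 6629.8, 5764 and 6511 CPM at 6 weeks. At this scaling the female hearts at 3 and 6 weeks lay below every control. By reads on listed genes, 3-week replicate 4 held 235090 of 30929192 and 6-week replicate 1 held 176199 of 23368740. Both are larger parts than the 148865 of 24424246 in control replicate 2, so this separation depends on scaling. The log2 fold changes of *Actc1*, -0.39 ± 0.18 (adjusted p = 0.118) and -0.33 ± 0.18 (adjusted p = 0.149), did not pass. In males they ranged from -0.25 ± 0.21 to -0.04 ± 0.19 (adjusted p from 0.392 to 0.908). The ratio of *Acta1* to *Actc1* was 3.13-fold that of controls in males at 1 week (exact permutation p = 0.0857, adjusted p = 0.229), and in the other 5 weekly comparisons it lay between 0.572- and 1.28-fold, with overlapping groups. Of 8 skeletal muscle markers 4 were listed and tested, and 2 of them, *Tnnt3* and *Pvalb*, rose in males at 1 week, with *Pvalb* alone at the other weeks and in females. Of all genes, 18.9% rose in males at 1 week and between 13.2% and 21.7% in the other weekly comparisons. The 4 markers were low, summing to between 3.08 and 11.3 CPM in males at 1 week and 2.04 to 3.19 CPM in their controls. Their part in the *Acta1* values was not tested.

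*Myl4* and *Myl7*, the atrial essential and regulatory light chains, are both on chromosome 11, at chr11:104440903-104486603 and chr11:5845449-5848792. *Myl4* was between 0.676 and 2.58 CPM in all 18 male libraries and between 0.962 and 3.01 CPM in 18 of 20 female ones. *Myl7* was between 0 and 0.529 CPM in the same 18 female libraries. In the female 1-week replicate 2, *Myl4* was 67.0 and *Myl7* 52.3 CPM, and in the female 6-week replicate 2 they were 383 and 346 CPM. Of the 7 other atrial markers, 5 were listed (*Sln* and *Bmp10* were not). In the 6-week library *Sbk3* was 40.6 CPM against at most 6.46 in the other 18, *Sbk2* 12.7 against at most 6.68, *Dkk3* 83.4 against at most 28.9 and *Stard10* 49.6 against at most 22.7, while *Kcnj3* was within their range. In the 1-week library *Dkk3* alone of the 5 lay above that range, at 41.5 CPM. *Dkk3* itself rose in induced hearts of both sexes, by 2.38 ± 0.26 on the log2 scale at 6 weeks in males (adjusted p = 1.26e-06). In males *Dkk3* rose at each week and *Kcnj3* fell at each week, *Sbk3* fell at 1 and 3 weeks and *Sbk2* at 1 week. The 5 atrial markers summed to between 61.0 and 65.1 CPM in males at 6 weeks and 72.3 to 84.8 CPM in their controls.

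Neither light chain was called in any week. *Myl4* in females at 6 weeks had a log2 fold change of 1.49 ± 1.28 (adjusted p = 0.366) and *Myl7* of 2.42 ± 1.51 (adjusted p = 0.204). With edgeR on recovered reads the 6-week changes passed (*Myl4* 5.57, adjusted p = 0.0117, and *Myl7* 9.72, adjusted p = 0.00754), and without the 2 libraries *Myl4* was -0.45 (adjusted p = 0.116). *Myl7* was not tested without the 2 libraries, since it then failed the filter on low values. In males *Myl4* was 1.46 ± 0.169 CPM in controls (n = 3) and 1.02 ± 0.383 CPM at 6 weeks (n = 3), a change of -0.39 ± 0.24 (adjusted p = 0.233), and at 3 weeks all 4 hearts lay below every control (-0.29 ± 0.22, adjusted p = 0.393).

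Uninduced CM-Il11-Tg hearts, which held some *Il11*, were compared with controls as a second question. They carried *Rosa26-Il11* and had no tamoxifen, while controls had tamoxifen and no *Rosa26-Il11*, so genotype and tamoxifen cannot be told apart here. No member was called in either sex, where 0.561% of genes rose and 0.0354% fell in males, and 2.41% rose and 0.466% fell in females. *Ankrd1* was 2537, 1185, 908 and 784 CPM in male uninduced hearts, above every male control, with a log2 fold change of 0.89 ± 0.35 (adjusted p = 0.371). Female values were 819, 373, 4764 and 726 CPM, with a change of 1.56 ± 0.47 (adjusted p = 0.0846). That change of *Ankrd1* was 0.82 (adjusted p = 0.16) without uninduced replicate 3, and 2.27 (adjusted p = 0.0164) with edgeR on recovered reads. The same replicate held 418 CPM of *Nppb*, with 209, 74.5 and 142 CPM in the other 3, and 49.1 CPM of *Il11*, against at most 21.4 in the others. *Nppb* in female uninduced hearts was higher than in controls by 1.19 ± 0.37 (adjusted p = 0.102), and by 0.77 (adjusted p = 0.353) without that replicate.

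The share of *Myh7* in the summed myosins was 5.29% ± 0.103 (SD, n = 4) in female uninduced hearts and 6.19% ± 0.463 (n = 4) in controls, and all 4 lay below every control (exact permutation p = 0.0286, adjusted p = 0.171). In males it was 5.19% ± 0.208 (n = 4) and 4.93% ± 0.151 (n = 3), with overlapping groups.

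Against uninduced hearts, which had both transgenes but no tamoxifen, fewer members were called with all libraries in the fit. The induced hearts are the same libraries as above. Induced *Il11* and tamoxifen with Cre activation cannot be told apart in this comparison. In males 2 of 8 rose at 1 week (*Nppa* and *Ankrd1*, where 18.8% of genes changed in either direction), 1 of 8 at 3 weeks (*Ankrd1*, where 16.1% changed) and 0 of 8 at 6 weeks (where 20.4% changed). *Nppa* was 135, 27.4, 38.5 and 28.6 CPM in male uninduced hearts, and its log2 fold change at 1 week was 3.30 ± 0.52 (adjusted p = 0.000169). *Ankrd1* changed by 1.49 ± 0.33 at 1 week (adjusted p = 0.00307) and by 1.00 ± 0.33 at 3 weeks (adjusted p = 0.0419). The 3-week call of *Ankrd1* depended on which replicate number was dropped from the male groups. It held without replicate 1 (1.33, adjusted p = 0.00137). It failed without replicate 2 (0.845, adjusted p = 0.227), replicate 3 (0.913, adjusted p = 0.22) and replicate 4 (0.897, adjusted p = 0.094), each dropped alone. In females *Nppa* rose at 1 week (12.6% of genes changed) by 2.21 ± 0.59 (adjusted p = 0.0153) and at 6 weeks (22.8% changed) by 2.18 ± 0.59 (adjusted p = 0.0101), and 0 of 9 were called at 3 weeks (16.7% changed). Without the 2 female libraries with atrial light chains *Nppa* was 2.15 at 1 week (adjusted p = 0.0059) and 1.43 at 6 weeks (adjusted p = 0.0442). Female calls of *Nppa* against uninduced hearts were lost at 1 week without replicate 1 of every group (1.71, adjusted p = 0.123) and at 6 weeks without replicate 2 (1.53, adjusted p = 0.085). That *Ankrd1* was not called in females rests on uninduced replicate 3, at 4764 CPM. Without this library *Ankrd1* changed by 1.64, 1.575 and 2.00 at 1, 3 and 6 weeks (adjusted p = 0.000176, 0.000193 and 9.81e-06). In the same fit *Nppb* at 1 week changed by 1.01 (adjusted p = 0.0371) and *Actc1* at 3 weeks by -0.47 (adjusted p = 0.0401).

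Between the weeks no member was called in either sex with limma. In males 0.0177% of genes changed from 1 to 3 weeks, 0.165% from 1 to 6 weeks and 0.0% from 3 to 6 weeks, and in females 0.218%, 1.03% and 0.0%. From 3 to 6 weeks 0 genes passed in males and in females, with 1072 and 2572 genes at an unadjusted p under 0.05. On that step edgeR called 0 genes in each sex, and DESeq2 called 1 higher and 0 lower in males and 74 higher and 50 lower in females. In males from 1 to 6 weeks *Acta1* changed by -2.48 ± 0.60 (adjusted p = 0.109) and *Nppa* by -2.34 ± 0.56 (adjusted p = 0.109), and from 1 to 3 weeks *Nppa* changed by -1.94 ± 0.52 (adjusted p = 0.128).

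Of 11 other genes listed for the fetal and stress program, 10 were tested. In males 6 of 10 rose at 1 week (*Rcan1*, *Fhl1*, *Slc2a1*, *Pfkp*, *Ankrd2* and *Ankrd23*), 3 at 3 weeks and 2 at 6 weeks, and in females 3, 0 and 4 rose, with none called lower in either sex. Of all genes tested, 18.9%, 13.2% and 16.2% rose at 1, 3 and 6 weeks in males and 15.3%, 16.8% and 21.7% in females. *Rcan1*, a target and inhibitor of calcineurin, was 63.7 ± 16.3 CPM in female controls and 171 ± 73.7 CPM at 6 weeks (log2 fold change 1.33 ± 0.43, adjusted p = 0.0172). *Acta2* and *Tagln*, smooth muscle genes that the fetal heart also uses, were not called. The median of the 10 genes at 6 weeks was 0.35 in males and 0.27 in females.

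Genes of the adult cardiomyocyte were called lower or not at all. Of 12, 5 fell at each week in males and 6, 6 and 7 fell in females, with none higher. Of all genes tested, 14.6%, 8.1% and 10.9% fell at 1, 3 and 6 weeks in males and 13.1%, 14.5% and 21.0% in females. *Kcnip2*, a subunit of the channel for the transient outward current, fell most: from 177 ± 11.3 to 50.3 ± 11.1 CPM at 6 weeks in males (log2 fold change -1.82 ± 0.17, adjusted p = 1.77e-07) and from 181 ± 14.7 to 42.6 ± 5.5 CPM in females (-2.07 ± 0.27, adjusted p = 3.3e-06). *Hk2*, *Ckmt2* and *Cpt1b*, of glucose, creatine and fatty acid use, also fell at 6 weeks in both sexes. *Atp2a2*, the calcium pump of the sarcoplasmic reticulum, was not called, and *Myl2*, the ventricular light chain, was called lower in females (-0.58 ± 0.14 at 6 weeks, adjusted p = 0.00323, beside -0.28 ± 0.17, adjusted p = 0.251, in males). The difference between the sexes was not tested. The median of the 12 at 6 weeks was -0.44 in males and -0.51 in females.

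Markers of other cells moved with the same comparisons. The 5 fibroblast markers summed to between 404 and 540 CPM in male controls and 1750 to 1980 CPM at 6 weeks, and to between 458 and 610 CPM and 1950 to 3560 CPM in females. The 5 macrophage markers went from 134 to 218 CPM in male controls to 545 to 738 CPM at 6 weeks, and from 108 to 161 CPM to 643 to 753 CPM in females. At 6 weeks the 4 endothelial markers lay between 429 and 563 CPM in males (controls 719 to 862) and between 407 and 572 CPM in females (controls 629 to 778). The cardiomyocyte markers at 6 weeks summed to between 13600 and 17400 CPM in males and 13500 and 16800 CPM in females. These sums overlapped the controls (15800 to 23400 and 13400 to 21100 CPM) and lay below every uninduced heart (18400 to 22600 and 17100 to 19600 CPM). They held 2 of 8 genes called lower in males at 6 weeks and 5 of 8 in females, *Ttn* and *Myom1* among both, where 10.9% and 21.0% of all genes were called lower. The part of these shifts in the values of the members was not tested, other than by scaling to the cardiomyocyte markers.

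The genes whose levels ran most like each member were named by the lower of the 2 sexes' Pearson r over 18 male and 20 female libraries, among 14196 genes, as a description only, since the libraries share groups. *Ankrd1* had the closest company: *Mvp* (r = 0.96 in males and 0.95 in females), *Mybpc2* (0.94 and 0.96) and *Cd63* (0.96 and 0.94). *Nppa* ran most like *Pam* (0.80 and 0.80), the enzyme that amidates peptides and an abundant atrial protein, then *Gpx8* and *Pdk3*. *Nppb* ran most like *Uck2* (0.80 and 0.77), *Myh6* like *Rbbp6* (0.84 and 0.84) and *Actc1* like *Mrpl45* (0.82 and 0.80). *Myh7* (*Zdhhc20*, 0.72 and 0.61), *Acta1* (*Cystm1*, 0.56 and 0.56) and *Myl4* (*Tpm2*, 0.74 and 0.67) had no gene as near. *Myl7*, not listed in males, could not be placed. Between the members, *Nppa* and *Ankrd1* had r = 0.88 in males and 0.63 in females, and *Acta1* and *Ankrd1* 0.37 and -0.01. All female r values included the 2 libraries with high atrial light chains and were not computed without them. Those of *Myl4* in particular rest on these libraries.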

How the data were processed

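RNA was sequenced from 40 mouse hearts, 1 library per mouse, after polyA selection with a directional kit. The authors deposited 1 table per sex, in which each value is a gene's reads divided by a library size factor, a signal on the scale of CPM (a level relative to library size). Values came out as whole reads (100% within 0.001 reads) once each library's step was found, and the edgeR and DESeq2 alternatives were run on these recovered reads. Whether counting used strand is not given in the sources used here. The test kept genes that reached 0.5 in 3 or more libraries (16931 in males, 16956 in females). Values were tested as log2(value + 0.5) with limma 3.58.1 in R 4.3.3, all groups of a sex in 1 fit, with Benjamini-Hochberg adjustment over all genes tested. A fold change on this scale understates the change of low genes. edgeR 4.0.16 and DESeq2 1.42.0 were alternatives. On recovered reads edgeR called 2881 genes higher and 1785 lower in males at 6 weeks against control, and 3687 and 3381 in females. Ratios within a library were compared by exact permutation tests, two-sided, over samples. Scripts were tested on simulated data. Replicates are separate mice, and no batch was named in the labels. Named genes were all members, with the listed genes of each pathway and the 3 genes with the most similar pattern to each member. Members and gene lists were chosen with earlier results of these data known. The marker lists also held ventricular, conduction and smooth muscle genes. At 6 weeks 0 of 3 ventricular markers were called in males and 1 of 3 (*Myl2*, lower) in females, *Hcn4* was lower in males among the conduction markers, and 0 of 4 smooth muscle markers were called in males and 1 (*Smtn*, lower) in females. Some results of the gene lists are not reported here.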

Additional observations from a re-analysis of the deposited data

Results flagged for a closer look

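Among 69 groups of 4 libraries examined over the members, 5 held a library far from the other 3, where chance sets apart about 1 in 20 groups. *Nppb* in the female control replicate 1 was 105 CPM against 69.2, 65.6 and 70.8 CPM in the other 3. *Myl4* was 67.0 CPM in the female 1-week replicate 2 (2.17, 0.962 and 1.17 CPM in the others) and 383 CPM in the female 6-week replicate 2 (1.51, 1.33 and 1.02 CPM). *Myl7* was 52.3 CPM and 346 CPM in the same 2 libraries.

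The 2 male libraries with contradicting labels entered no comparison. The library titled 6 weeks and described as control held 1847 CPM of *Myh7* and 8461 CPM of *Actc1*, just above the highest controls (1829 and 8209 CPM), with 0.597 CPM of *Il11*. The library titled control and described as 6 weeks held 114 CPM of *Nppa*, 342 CPM of *Nppb* and 2375 CPM of *Ankrd1*, above the highest controls (59.96, 171 and 725 CPM), with 511 CPM of *Il11*.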

How the results depend on the processing

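No called change of a member against control changed sign under any alternative run, while uncalled changes of *Myh6*, *Myh7*, *Acta1*, *Actc1*, *Myl4* and *Myl7* did in some. Counts of members called are given here where they left the range within 1.5 times the reported count. Scaling to cardiomyocyte markers, the atrial covariate and fits without named libraries were chosen after seeing the data, and the cause of the shifts was not tested. Against control in males at 6 weeks (1 reported), 2 were called with a pseudocount of 0.1, a stricter filter (1 in at least 4 libraries), median-of-ratios scaling, edgeR or DESeq2, 3 with library size scaling and 4 with cardiomyocyte scaling or the atrial covariate. In males at 1 week (4 reported) the atrial covariate left 2, and at 3 weeks (2 reported) DESeq2 left 1. In females at 3 weeks (2 reported) DESeq2 left 1 and a fit of only the 2 groups gave 5. In females at 6 weeks (3 reported) edgeR gave 5, and 1 was left without the 2 libraries with atrial light chains. For female uninduced hearts (0 reported) library size scaling and edgeR gave 2 and DESeq2 1. DESeq2 called 1 member between 1 and 6 weeks in males. DESeq2 gave no adjusted p for *Ankrd1*, *Myl4* and *Myl7* in females, so its counts there lack them.

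Against uninduced hearts in males, the 1-week count (2 reported) was 4 with library size scaling, cardiomyocyte scaling and edgeR, and 5 with DESeq2. The 3-week count (1 reported) was 2 with cardiomyocyte scaling and 0 with edgeR, DESeq2, the atrial covariate or a log2 fold change of at least 1. The 6-week count (0 reported) was 1 with the stricter filter, edgeR or the atrial covariate, 2 with DESeq2 and 3 with cardiomyocyte scaling. In females, the 1-week count (1 reported) was 4 with cardiomyocyte scaling. The 3-week count (0 reported) was 1 with the stricter filter, library size scaling, cardiomyocyte scaling, edgeR, DESeq2 or the gene length trend removed, and the 6-week count (1 reported) was 3 with library size scaling, cardiomyocyte scaling or edgeR and 0 with only the 2 groups fitted.

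Leaving out single replicates, counts against control ran from 2 to 4, 1 to 3 and 1 to 3 in males at 1, 3 and 6 weeks, and from 2 to 3, 1 to 2 and 1 to 3 in females, with 0 to 2 in female uninduced hearts. Against uninduced hearts they ran from 2 to 4, 0 to 2 and 0 to 2 in males and from 0 to 3, 0 to 2 and 0 to 2 in females, and from 0 to 1 between 1 and 6 weeks in males. Over all genes, male calls at 1 week were 1846 higher and 1107 lower without replicate 3 of every group.

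Same-numbered libraries did not deviate together on average. The mean correlation was 0.013 over 33 pairs in males (from -0.134 to 0.256) and 0.025 over 40 in females (from -0.342 to 0.563). A mean over all pairs cannot show whether some same-numbered libraries belong together, and the main fit used no pairing. With a replicate block, 3 members were called in males at 6 weeks against control, with *Nppa* at 1.49 (adjusted p = 0.0204) and *Nppb* at 1.06 (adjusted p = 0.036). *Nppb* at 3 weeks was 1.03 (adjusted p = 0.0407) and *Acta1* at 1 week 1.47 (adjusted p = 0.0574). Against uninduced hearts the replicate block gave 4, 2 and 1 in males and 2 in females at 3 weeks.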
